A study of Mus musculus with 6 samples.

Results

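The proteasome is the cell's main machine for breaking down ubiquitin-tagged proteins, and the genes of its subunits were followed here across mouse arrays of hematopoietic stem cells (HSC), which sit in bone marrow and give rise to every blood lineage. Members were all probe sets whose single gene symbol starts with Psma, Psmb, Psmc or Psmd followed by a digit, without the interferon-linked Psmb8 and Psmb9. The rule found 44 probe sets of 38 genes among the 28815 probe sets of the array. The members were chosen by symbol, but the family as a whole was selected on genotype differences of these arrays, within each array number, so every difference by genotype below is a description and no test of it is used as support.

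There were 6 arrays, 3 from HSC of Selp-/- mice, in which P-selectin, an adhesion receptor, has been knocked out, and 3 from HSC of wild-type (WT) mice. The labels give C57BL/6 as the strain for both genotypes and number the arrays 1 to 3 within each. The study asked through which genes P-selectin acts in HSC. The age of the mice, how the allele was made, how the cells were sorted and whether different mice supplied the arrays of 1 genotype are not given in the sources used here, so the spread between arrays may be technical.

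The proteasome consists of a barrel, the 20S core, capped by a 19S regulatory particle. The core stacks rings of alpha subunits (Psma), which form the gate, on rings of beta subunits (Psmb), of which Psmb5, Psmb6 and Psmb7 carry the cutting sites. In the regulatory particle, a base of ATPases (Psmc) unfolds the substrate and threads it into the core, and a lid of Psmd proteins removes the ubiquitin chain. Cells make the subunits of the complex in matched amounts, in part through the transcription factor Nfe2l1, which raises proteasome genes when the proteasome is impaired. HSC are known for a low rate of protein synthesis and for their sensitivity to disturbed protein quality control.

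Of the 44 probe sets, 42 of 36 genes passed the filter on dim probe sets, a mean log2 level of at least 8.79 over the 6 arrays. All levels below are background-corrected and quantile-normalized log2 intensities, and differences are Selp-/- minus WT on that log2 scale. The dimmest one kept was Psmc3ip at a mean of 8.90, and the brightest one left out was Psmb11 at 8.67. Psmc3ip carries the family's symbol but encodes a partner of meiotic recombination proteins, not a subunit, and is given apart. Levels of different probe sets are not set against each other, since each probe set has its own response.

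The 2 members left out were the tissue-specific ones. Psma8, the alpha subunit of the testis proteasome, had deposited intensities of 503, 492.5 and 401 in Selp-/- HSC, against 353.5, 428.5 and 480 in WT HSC. Psmb11, the beta subunit of thymic epithelium, had 507, 506 and 524 in Selp-/- HSC, against 612, 496 and 518 in WT HSC. The genotypes overlapped in both, and all 12 values lay below the median intensity of their array, which was 701, 638 and 713 in Selp-/- 1, 2 and 3 and 636, 563 and 751 in WT 1, 2 and 3.

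Most members shared a profile across the array numbers. Arrays numbered 3 were high and arrays numbered 2 were low, in both genotypes. Set against its own 6-array mean, the median of the 42 probe sets was 0.068, -0.17 and 0.28 in Selp-/- 1, 2 and 3, against -0.091, -0.17 and 0.081 in WT 1, 2 and 3. Selp-/- 3 was thus the highest of all 6, and the arrays numbered 2 were the lowest. In Selp-/- HSC 41 of the 42 probe sets lay higher in array 3 than in the mean of arrays 1 and 2, and in WT HSC 38 of 42 did. Both held for 37 of 42, or 88.1%, against 35.2% of all 17289 tested probe sets and 37.2% of those with 1 symbol.

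**Figure D1:**
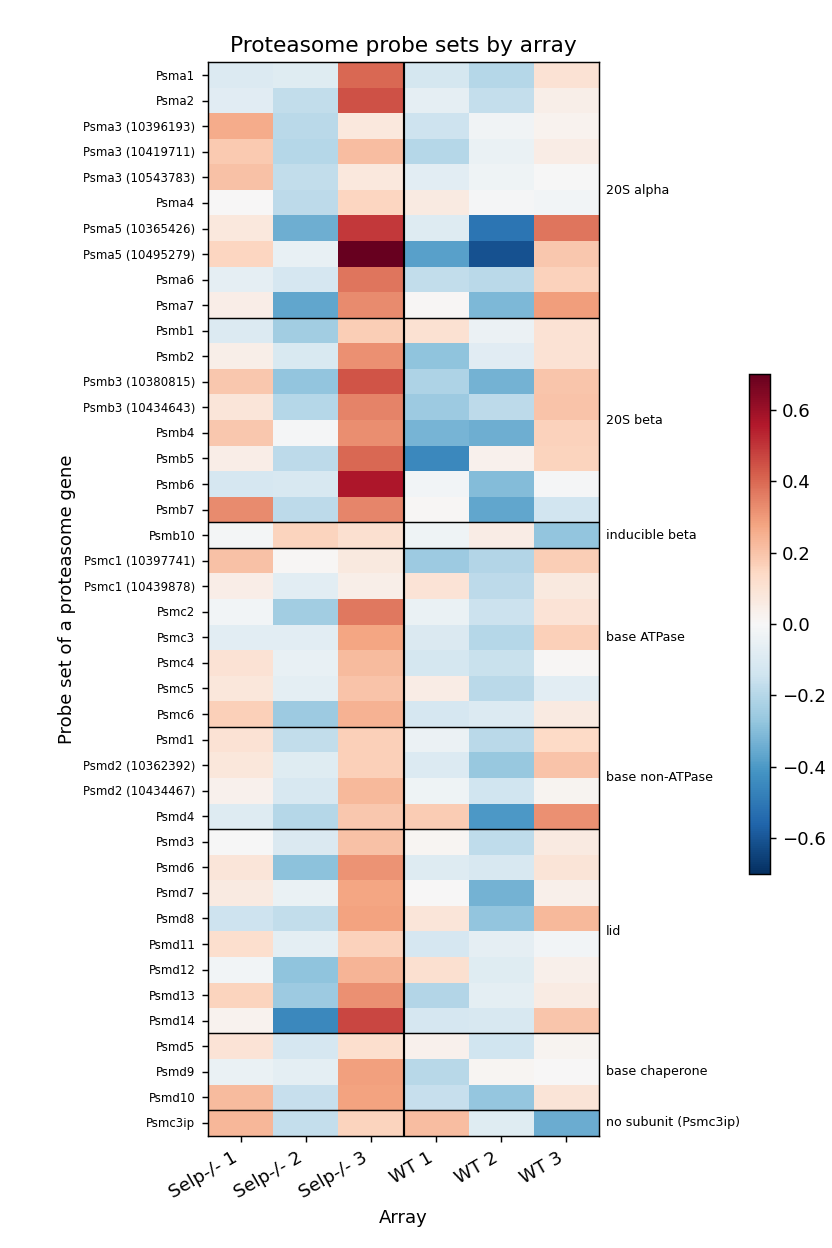
Log2 level of each of the 42 tested probe sets minus its mean over the 6 arrays (colour, red higher and blue lower), with arrays in columns (Selp-/- left, WT right) and probe sets in rows by their place in the proteasome. The column of Selp-/- 3 is red throughout, at a median of 0.28, and the columns of Selp-/- 2 and WT 2 are mostly blue, at -0.17 each.

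The size of this step was a median of 0.31 in Selp-/- and 0.19 in WT HSC, against -0.016 in each genotype over all tested probe sets. In the arrays numbered 2, 41 of 42 lay below the mean of the other numbers in Selp-/- HSC and 33 of 42 in WT HSC. In both, 33 of 42 did (78.6%, against 29.7% of all tested and 31.9% of those with 1 symbol). Psmb10 was the one member not lower in Selp-/- 2. There were 5 of the 42 that were not higher in both arrays numbered 3, namely Psma4, Psmb10, Psmc1 and Psmc5 of the complex, of which Psmc1 was so in 1 of its 2 probe sets, and Psmc3ip.

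The array number is no condition of the study, and its term in the model was tested as a measure that the choice of the family did not use. In limma, with genotype in the model, 4 of 42 probe sets differed by array number at an adjusted p of 0.05, or 9.52%, against 12.8% of all tested probe sets. On the normalized levels single proteasome probe sets thus passed no more often than others, and what the family shared was the direction of small steps. In unnormalized intensities this turned round, with 35 of 42 passing (83.3%, against 34.1% of all). The 4 were both probe sets of Psma5 (adjusted p = 0.0113 for 10365426 and 0.0138 for 10495279), Psma7 (adjusted p = 0.0343) and Psmb3 (probe set 10380815, adjusted p = 0.0364). The count moved with single arrays, as did the share of all probe sets that passed. It was 3 without Selp-/- 1 (7.14%, against 11.5% of all) and 3 without WT 1 (7.14%, against 12.5%). It was 2 without Selp-/- 2 (4.76%, against 10.7%), 1 without Selp-/- 3 (2.38%, against 9.07%), 1 without WT 2 (2.38%, against 7.45%) and 0 without WT 3, where 5.99% of all passed. Leaving out both arrays numbered 1 gave 7 (16.7%, against 16.8%), both numbered 2 gave 1 (2.38%, against 11.6%) and both numbered 3 gave 0, where 0.503% of all passed.

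Psma7, an alpha ring subunit, measured 10.24, 9.83 and 10.52 in Selp-/- 1, 2 and 3, against 10.20, 9.88 and 10.49 in WT 1, 2 and 3. Its arrays numbered 3 lay 0.49 in Selp-/- and 0.45 in WT HSC above the mean of the other numbers, while the genotypes differed by only 0.0069 in mean. Psmb3, a beta ring subunit with no cutting site, measured 12.79, 12.33 and 13.05 in Selp-/- 1, 2 and 3, against 12.39, 12.28 and 12.80 in WT 1, 2 and 3 on probe set 10380815. The arrays numbered 3 were again the highest of each genotype and the arrays numbered 2 the lowest.

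**Figure D2:**
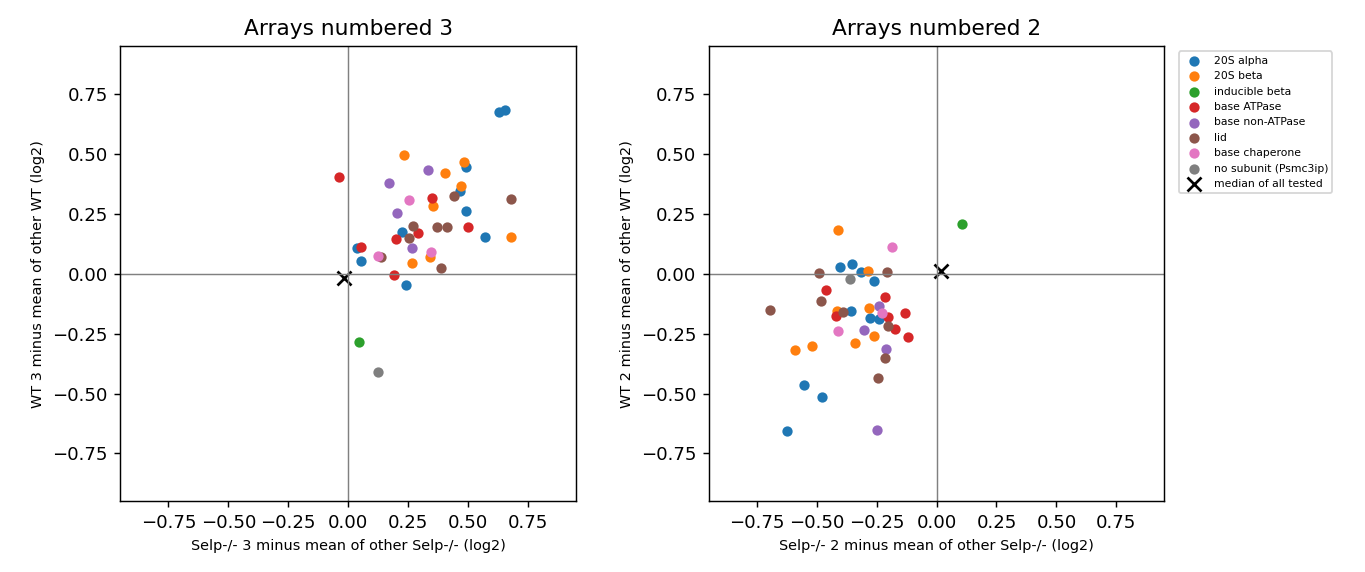
Level in the array of one number minus the mean of the other arrays of its genotype (log2), Selp-/- on the horizontal and WT on the vertical axis, for arrays numbered 3 (left) and 2 (right), with 1 point per tested probe set. In the left panel 37 of 42 points lie right of and above 0, and in the right panel 33 of 42 left of and below 0, while the median of all tested probe sets (cross) lies near 0.

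Markers of blood cells also went with the array number, and their part in the proteasome profile was not tested. Of 10 HSC marker genes 8 had a probe set, and their summed linear level was 5859 to 6054 in the arrays numbered 3, against 16570 to 22600 in the other 4 arrays. All 7 mast cell and basophil genes had one, with sums of 45090 to 60790 in the arrays numbered 3 and 7147 to 9116 in the others. The 8 neutrophil genes summed to 58100 to 63030 in the arrays numbered 3, against 15390 to 38960 in the others. The lowest sums were 15390 in Selp-/- and 16230 in WT HSC, both in the arrays numbered 2. All 8 neutrophil probe sets lay lower in the arrays numbered 2 than in the other numbers, in both genotypes. The 5 monocyte genes with a probe set, of 6, summed to 9288 to 9837 in the arrays numbered 3 and 3776 to 4796 in the others. The 3 erythroid genes with one, of 5, summed to 1491 to 1782 in the arrays numbered 3 and 5070 to 18450 in the others. No marker was listed at 0. By these sums, the arrays numbered 3 held less HSC and erythroid signal and more granulocyte and monocyte signal than the rest, under the same label. A sum rests mostly on its brightest probe sets, and single members differed. Only 3 of 5 monocyte probe sets were higher in the arrays numbered 3 of both genotypes, against 7 of 8 neutrophil ones. Irf8, of the monocyte list, differed there from the mean of the other numbers by -0.15 in Selp-/- and -0.37 in WT HSC. Epor, of the erythroid list, differed by -0.60 in Selp-/- and -0.042 in WT HSC. In such bulk samples fewer cells of a type and less RNA per cell cannot be told apart.

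Between the genotypes, most members had a small positive mean difference. The mean was higher in Selp-/- HSC for 37 of the 42 probe sets and lower for 5, with a range of -0.11 to 0.53. The median was 0.13, against 0.0054 over all tested probe sets, of which 51.8% were higher. Among tested probe sets with 1 symbol, as the members have, the median was 0.017, with 56% higher. Among tested probe sets at or above the median level, the median was 0.0094, with 53.0% higher. No member passed the adjusted test in limma, with 0 of 42 called higher and 0 lower (0% of all tested in either direction, lowest adjusted p of the members 1). At an unadjusted p under 0.05 there were 0 of 42, against 0.706% of all tested. With the array number as a block, 0 of 42 passed (0% of all tested, lowest adjusted p 0.852), and 4 of 42 lay under an unadjusted 0.05, against 3.64% of all tested.

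In none of the 42 did the 3 Selp-/- arrays lie wholly above or wholly below the 3 WT arrays, which 2.24% and 1.97% of all tested probe sets did. Within the array numbers the genotypes can be set side by side, although the labels do not give the numbers as pairs. Over all tested probe sets, deviations from the genotype mean correlated at 0.428 between Selp-/- 1 and WT 1. Between Selp-/- 1 and WT 2 they correlated at 0.514. The median of the members was 0.14 in the pair numbered 1, 0.025 in pair 2 and 0.20 in pair 3, against 0.0029, 0.010 and 0.00083 over all tested probe sets. Accordingly 33, 23 and 38 of the 42 were higher in the Selp-/- array of the pair. In all 3 numbers 16 of 42 were higher (38.1%, against 12.6% of all tested and 13.7% of those with 1 symbol) and 0 were lower.

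**Figure D3:**
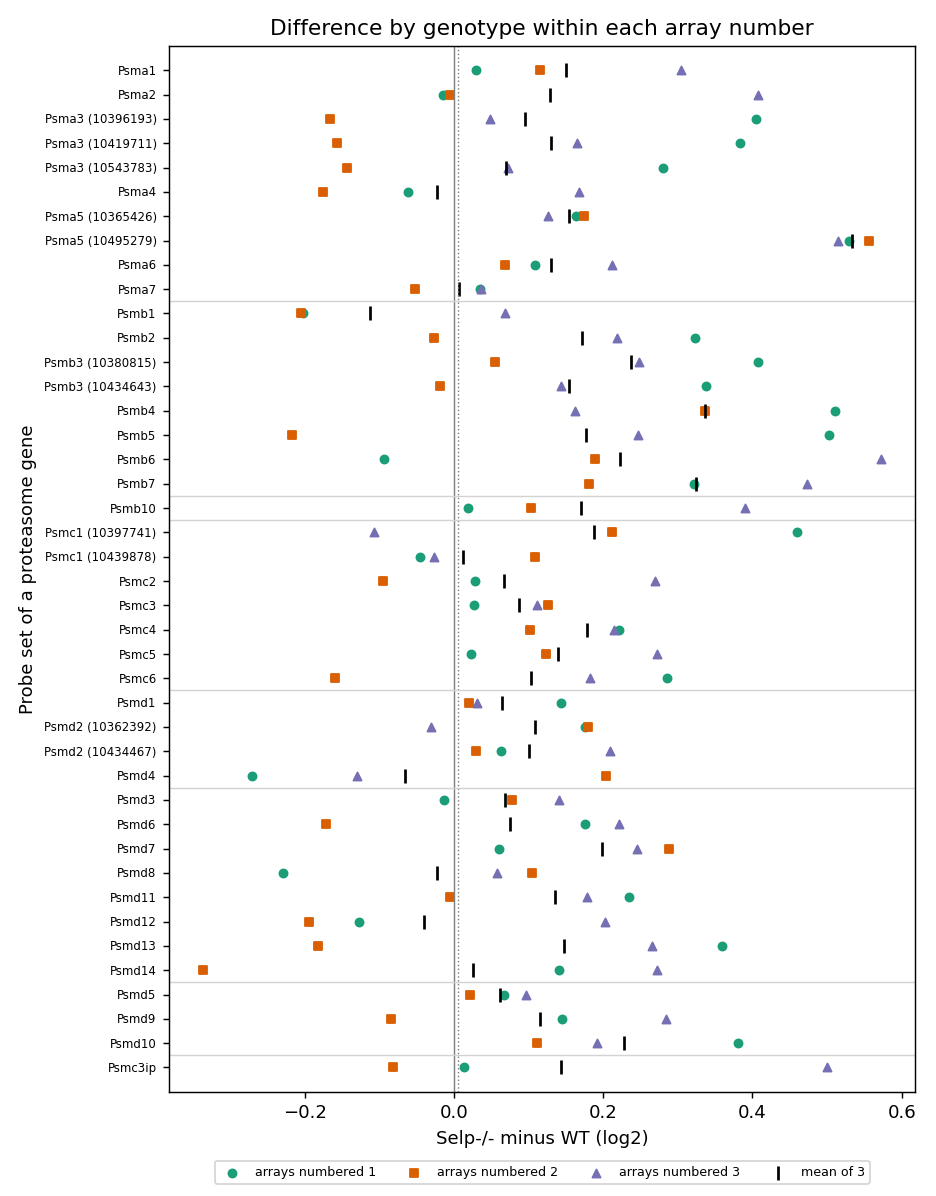
Selp-/- minus WT difference (log2) of each tested probe set between the arrays numbered 1 (circles), 2 (squares) and 3 (triangles), with their mean (bar); the dotted line is the median of all tested probe sets at 0.0054. Of the 42 means 37 lie right of 0, while the squares lie on both sides, with 23 of 42 right of 0.

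This difference changed in size with the arrays left out. Less the median of all tested probe sets, the members' median was 0.12 over all arrays, 0.0057 without Selp-/- 3, 0.23 without Selp-/- 2, 0.072 without WT 1 and 0.077 without WT 2. Without Selp-/- 3, 22 of 42 lay above the median of all probe sets, against 37 of 42 with it. Leaving out both arrays numbered 1, 2 or 3, which keeps the numbers balanced between the genotypes, gave 0.082, 0.19 and 0.064. Leaving out 1 array of a pair also sets its partner against arrays of other numbers. The values without a single array thus mix that array with its number.

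Lists of other cells and states are given beside this difference, and their part in it was not tested. The 7 of 8 cell cycle genes with a probe set summed to 31220 to 40810 in Selp-/- and 29010 to 37070 in WT HSC. Their median difference was 0.13, -0.13 and 0.24 between the arrays numbered 1, 2 and 3. The 9 of 11 interferon genes with a probe set summed to 10520 to 20340 in Selp-/- and 11010 to 12460 in WT HSC, the highest being Selp-/- 3. Of their 10 tested probe sets 9 were higher in mean in Selp-/- HSC, with medians of -0.051, 0.092 and 0.61 in numbers 1, 2 and 3. The interferon list thus differed mainly in number 3. Monocyte genes summed to 4624 to 9837 in Selp-/- and 3776 to 9288 in WT HSC. Their median difference was positive in every number, at 0.30, 0.14 and 0.52, with 3 of 5 tested probe sets higher in mean. The 4 of 5 B lymphoid genes with a probe set summed to 2594 to 4304 in Selp-/- and 3741 to 5527 in WT HSC. All 4 were lower in mean in Selp-/- HSC, with medians of 0.037, -0.19 and -0.40 by number. The summed ranges of the genotypes overlapped in each of these lists, also where the differences within the numbers had 1 direction.

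By place in the complex, the 19 probe sets of the core had a median difference of 0.15, with 17 higher and 2 lower in Selp-/- HSC. The 7 probe sets of the base ATPases had 0.10, with 7 higher. The 15 Psmd probe sets, base and lid subunits and chaperones together, had 0.075, with 12 higher and 3 lower. Within the array numbers, the core and the Psmd group had their lowest median difference in number 2, and the ATPases in number 1. The core differed by 0.28, -0.0058 and 0.21 between the arrays numbered 1, 2 and 3, the ATPases by 0.028, 0.11 and 0.18, and the Psmd group by 0.14, 0.021 and 0.19. These groups hold subunits of 1 complex measured on the same arrays, and no test of one against another was made.

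In the alpha ring, 9 of 10 probe sets were higher in mean in Selp-/- HSC and 1 was lower, with a median of 0.13. Psma5, an alpha ring subunit with 2 probe sets, had the most even differences of the family when arrays of the same number were set side by side. That evenness rests on matching by number, which the labels do not give as a pairing. Probe set 10495279 measured 9.40, 9.19 and 9.95 in Selp-/- 1, 2 and 3, against 8.87, 8.64 and 9.44 in WT 1, 2 and 3, or 9.51 ± 0.39 in Selp-/- and 8.98 ± 0.41 in WT HSC (SD, n = 3 each). Every Selp-/- array was above the WT array of its number, by 0.53, 0.56 and 0.52, yet the genotypes overlapped, since WT 3 exceeded Selp-/- 1 and 2. The other Psma5 probe set, 10365426, measured 9.91, 9.50 and 10.34 in Selp-/- 1, 2 and 3, against 9.75, 9.32 and 10.21 in WT 1, 2 and 3, with differences of 0.16, 0.17 and 0.13 by number. Both probe sets had the same direction in every number, and the size was 0.53 on one and 0.15 on the other, so the size of the Psma5 difference depends on the probe set. It also moved when single arrays were left out, which unbalances the array numbers between the genotypes. Less the median of all tested probe sets, probe set 10495279 differed by 0.31 without Selp-/- 3, 0.36 without WT 2 and 0.77 without WT 3. Probe set 10365426 changed sign, with -0.065 without Selp-/- 3 and -0.069 without WT 2, and had 0.37 without Selp-/- 2 and 0.38 without WT 3. Leaving out both arrays of a number, which keeps the numbers balanced between the genotypes, moved these values little. Without numbers 1, 2 and 3 in turn, probe set 10495279 gave 0.52, 0.53 and 0.54. Probe set 10365426 then gave 0.14, 0.15 and 0.16. The annotation lists 2 accessions for probe set 10495279 and 6 for 10365426.

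**Figure D4:**
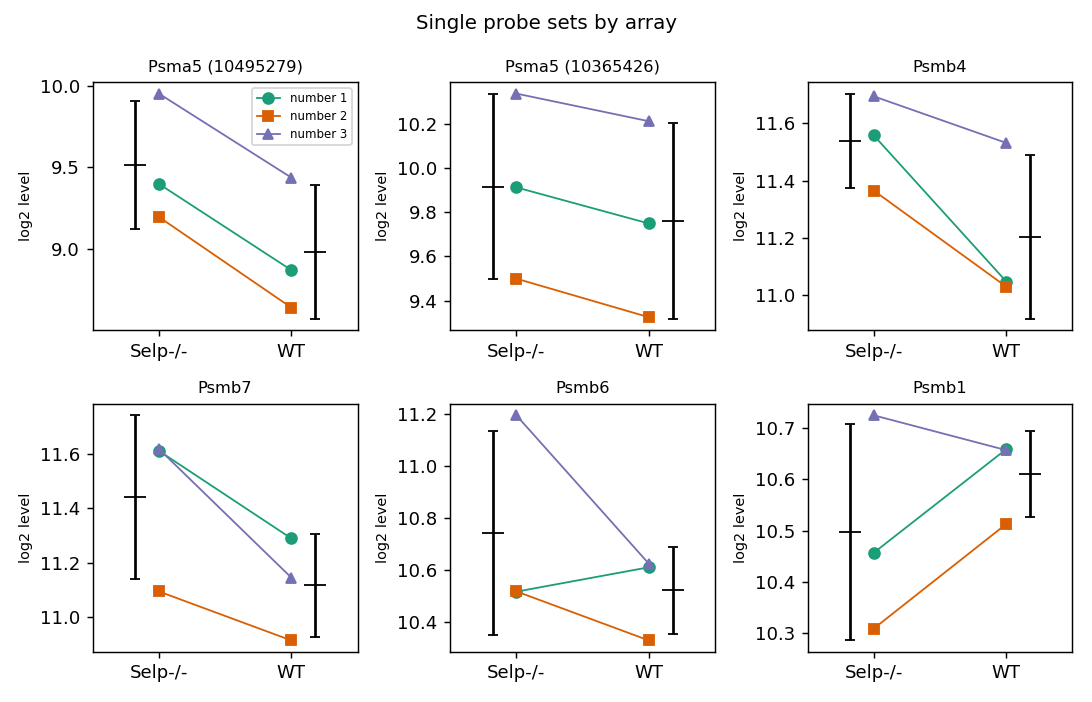
Log2 level of 6 probe sets in each array, with lines joining arrays of one number (circles 1, squares 2, triangles 3), Selp-/- left and WT right, and bars for mean ± SD (n = 3 each). Probe set 10495279 of Psma5 falls along all 3 lines towards WT, by 0.53, 0.56 and 0.52, while Psmb1 is higher in WT in the arrays numbered 1 and 2.

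Psma1, Psma2 and Psma6 differed by 0.15, 0.13 and 0.13 in mean, and each had its largest difference between the arrays numbered 3. Psma2 measured 9.88, 9.78 and 10.40 in Selp-/- HSC, against 9.89, 9.79 and 10.00 in WT HSC, so that Selp-/- 3 alone stood above the rest. Psma3, with 3 probe sets, differed by 0.096, 0.13 and 0.070, each positive in numbers 1 and 3 and negative in number 2. Psma4 was the one alpha subunit lower in mean in Selp-/- HSC, with differences of -0.061, -0.18 and 0.17 in numbers 1, 2 and 3 and a mean of -0.023. It measured 10.60, 10.41 and 10.75 in Selp-/- HSC, against 10.66, 10.59 and 10.58 in WT HSC, and the genotypes overlapped.

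In the beta ring, 7 of 8 probe sets were higher in mean and 1 was lower, with a median of 0.20. Psmb4, a structural beta subunit, measured 11.56, 11.37 and 11.70 in Selp-/- 1, 2 and 3, against 11.05, 11.03 and 11.53 in WT 1, 2 and 3, or 11.54 ± 0.17 in Selp-/- and 11.20 ± 0.29 in WT HSC (SD, n = 3 each), a difference of 0.34. Each Selp-/- array exceeded the WT array of its number, and WT 3 lay between Selp-/- 2 and Selp-/- 1. Psmb2, another beta subunit without a cutting site, differed by 0.17. Psmb3 differed by 0.24 and 0.15 on its 2 probe sets. Psmb1, a beta subunit without a cutting site, was the lowest of the ring at -0.11, with levels of 10.46, 10.31 and 10.72 in Selp-/- HSC, against 10.66, 10.51 and 10.66 in WT HSC. In Psmb1 the WT array was higher in numbers 1 and 2 and the Selp-/- array in number 3.

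The 3 subunits with cutting sites differed by 0.18, 0.22 and 0.32 for Psmb5, Psmb6 and Psmb7. Psmb7, which cuts after basic residues, measured 11.61, 11.10 and 11.62 in Selp-/- 1, 2 and 3, against 11.29, 10.91 and 11.15 in WT 1, 2 and 3, or 11.44 ± 0.30 in Selp-/- and 11.12 ± 0.19 in WT HSC (SD, n = 3 each). It was higher in the Selp-/- array of every number, by 0.32, 0.18 and 0.47, and the ranges overlapped through Selp-/- 2. Psmb6, which cuts after acidic residues, measured 10.52, 10.52 and 11.20 in Selp-/- HSC, against 10.61, 10.33 and 10.62 in WT HSC. The difference of Psmb6 lay in Selp-/- 3, since numbers 1 and 2 differed by -0.094 and 0.19. Psmb5, the chymotrypsin-like subunit and the main target of bortezomib, measured 12.83, 12.59 and 13.18 in Selp-/- HSC, against 12.32, 12.81 and 12.93 in WT HSC. Its differences of 0.50, -0.22 and 0.25 in numbers 1, 2 and 3 changed sign, since WT 2 exceeded Selp-/- 2.

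Psmb10 replaces Psmb7 in the immunoproteasome, the form that lymphoid cells and interferon-treated cells build. It measured 10.66, 10.83 and 10.79 in Selp-/- 1, 2 and 3, against 10.64, 10.72 and 10.40 in WT 1, 2 and 3, a mean difference of 0.17. Its lowest array was WT 3, where the 8 other beta probe sets lay above the mean of WT 1 and 2. The difference was 0.019, 0.10 and 0.39 in numbers 1, 2 and 3, largest in number 3, where WT 3 was low and Selp-/- 3 lay below Selp-/- 2. Psmb8, another subunit of the immunoproteasome, had differences of -0.14, 0.065 and 0.15 in the same order. Psmb9, its partner there, had -0.058, -0.018 and -0.16, so these subunits had no common direction.

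Promoter sequences are shown for the members with a known kind of proteasome control element close to the start. The antioxidant response element, whose core reads TGACNNNGC, is bound by Nfe2l1 and Nfe2l2. RefSeq promoter windows of GRCm38.p6, 250 bases before to 50 after each start, were at hand for 31 member genes in 33 windows. On either strand the core stood in 5 of the 33 windows (15.2%), those of Psmb5, Psmb6, Psmc6, Psmd9 and Psmd12, against 12.4% of 32851 windows of all genes, so it was about as common in the family as elsewhere. In 3 of them it lay within the last 100 bases before the start, starting 47 bases before it in Psmb5, 9 in Psmb6 and 31 in Psmd9. Those 100 bases follow in the direction of the gene, with the core in capitals.
Psmb5, chr14:54617996-54618095, minus strand: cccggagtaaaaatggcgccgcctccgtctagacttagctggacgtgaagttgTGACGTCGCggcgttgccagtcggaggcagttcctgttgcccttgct
Psmb6, chr11:70525257-70525356, plus strand: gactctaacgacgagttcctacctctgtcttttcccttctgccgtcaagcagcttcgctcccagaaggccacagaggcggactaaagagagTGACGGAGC
Psmd9, chr5:123228090-123228189, plus strand: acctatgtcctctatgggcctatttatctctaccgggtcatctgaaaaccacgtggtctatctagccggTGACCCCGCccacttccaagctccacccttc
All 3 read in gene direction on the coding strand. The genes behind them had genotype differences of 0.18, 0.22 and 0.12, within the range of the family. The box CCAAT, on either strand, was found in 13 of the 33 windows (39.4%, against 37.4% of all windows). The GC box GGGCGG was found in 18 of 33 (54.5%, against 35.7%). A match is a description of the letters, not a site in use.

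In the regulatory particle, all 7 ATPase probe sets were higher in mean in Selp-/- HSC, by 0.012 to 0.19. Both ends belong to Psmc1, whose yeast counterpart helps to open the core gate, so its 2 probe sets disagree in size. Probe set 10397741 of Psmc1 measured 10.40, 10.20 and 10.26 in Selp-/- HSC, against 9.94, 9.99 and 10.37 in WT HSC, and probe set 10439878 measured 10.08, 9.96 and 10.07 in Selp-/- HSC, against 10.12, 9.85 and 10.10 in WT HSC. Neither was higher in Selp-/- 3 than in WT 3, unlike most of the family. Psmc4, with a difference of 0.18, measured 10.76, 10.61 and 10.89 in Selp-/- 1, 2 and 3, against 10.54, 10.51 and 10.67 in WT 1, 2 and 3. It was higher in the Selp-/- array of each number, and the ranges overlapped between Selp-/- 2 and WT 3. Psmc3 and Psmc5 were also higher in each number, by 0.027, 0.13 and 0.11 and by 0.023, 0.12 and 0.27. Psmc2 and Psmc6 had 0.067 and 0.10 in mean and were lower in the Selp-/- array of number 2.

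Of the base subunits without ATPase activity, Psmd1 and Psmd2 are the large scaffold proteins and Psmd4 is a ubiquitin receptor. Psmd1 differed by 0.065, and Psmd2 by 0.11 and 0.10 on its 2 probe sets. Psmd4 was lower in mean in Selp-/- HSC, with a difference of -0.065 and levels of 9.70, 9.59 and 9.98 in Selp-/- HSC, against 9.97, 9.39 and 10.11 in WT HSC. WT 1 and WT 3 were high and WT 2 low in Psmd4, and the genotypes overlapped. The SD was 0.20 in Selp-/- and 0.38 in WT HSC.

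In the lid, 6 of 8 probe sets were higher in mean and 2 were lower, with a median of 0.072. All 8 lay higher in Selp-/- 3 than in WT 3, and 3 of 8 did between the arrays numbered 2. Psmd7, the partner of the deubiquitinase Psmd14, measured 10.94, 10.83 and 11.16 in Selp-/- 1, 2 and 3, against 10.88, 10.54 and 10.91 in WT 1, 2 and 3, a difference of 0.20. It was the one lid probe set higher in the Selp-/- array of all 3 numbers. Psmd14, which cuts the ubiquitin chain from the substrate, had the widest spread between Selp-/- arrays in the family, with 11.92, 11.44 and 12.36 in Selp-/- 1, 2 and 3, against 11.78, 11.78 and 12.09 in WT 1, 2 and 3. Its mean difference was 0.026, made of 0.14, -0.34 and 0.27 in numbers 1, 2 and 3.

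Psmd13 measured 11.06, 10.65 and 11.23 in Selp-/- HSC, against 10.70, 10.84 and 10.96 in WT HSC, with a mean difference of 0.15 and the opposite sign in number 2. Psmd11, a scaffold of the lid, differed by 0.14, Psmd3 by 0.069 and Psmd6 by 0.075. Psmd8 and Psmd12 were the 2 lid subunits lower in mean, with differences of -0.022 and -0.040. Psmd12 measured 10.46, 10.19 and 10.71 in Selp-/- HSC, against 10.58, 10.39 and 10.51 in WT HSC, so that its Selp-/- arrays enclosed the WT range. For the lid the median step of the arrays numbered 3 was 0.38 in Selp-/- and 0.19 in WT HSC, larger than its median difference by genotype.

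The 3 chaperones that assemble the base, Psmd5, Psmd9 and Psmd10, were higher in mean by 0.062, 0.12 and 0.23. Psmd10, also known as gankyrin, measured 10.45, 10.07 and 10.52 in Selp-/- 1, 2 and 3, against 10.07, 9.96 and 10.33 in WT 1, 2 and 3. Its Selp-/- array was the higher one in each number, by 0.38, 0.11 and 0.19, and WT 3 lay above Selp-/- 2. Psmc3ip, which is no subunit, measured 9.13, 8.73 and 9.06 in Selp-/- HSC, against 9.12, 8.82 and 8.56 in WT HSC, with a difference of 0.14 that lay in number 3. Its level in WT 3 was the lowest of the 6, as in Psmb10 and in no other tested member.

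Genes that act on the proteasome without belonging to the symbol rule were a list of 40, of which 30 had a tested probe set, 31 in all. None passed the genotype test (0 of 31 higher and 0 lower), with 21 higher and 10 lower in mean and a median of 0.031. By array number 4 of 31 passed, against 12.8% of all tested, namely Sem1, Ubqln2, Zfand5 and Nfya. In the arrays numbered 3 of both genotypes 13 of 31 were higher than in the other numbers, or 41.9%, against 88.1% of the proteasome probe sets and 35.2% of all. The step of the subunits in the arrays numbered 3 was thus not seen across this list.

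Sem1, a small lid subunit with another symbol, measured 9.87, 9.95 and 10.77 in Selp-/- 1, 2 and 3, against 10.01, 9.49 and 10.43 in WT 1, 2 and 3 and followed the array numbers (adjusted p = 0.0336). Psmg1, a chaperone of the alpha ring, had the largest mean difference of the list at 0.31, with levels of 10.85, 10.53 and 10.96 in Selp-/- 1, 2 and 3, against 10.59, 10.21 and 10.62 in WT 1, 2 and 3. It was higher in each number, by 0.27, 0.32 and 0.34, and the ranges overlapped. Pomp, which assembles the beta rings, had a difference of -0.090, and Psmf1, an inhibitor of the core, -0.18. Psmf1 measured 10.82, 10.49 and 10.53 in Selp-/- HSC, against 11.05, 10.68 and 10.65 in WT HSC, lower in the Selp-/- array of every number.

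The activators that interferon induces, Psme1 and Psme2, differed by -0.043 and 0.11, the nuclear activator Psme3 by 0.16. Psme2 measured 11.39, 11.10 and 11.90 in Selp-/- HSC, against 11.44, 11.09 and 11.54 in WT HSC, highest in Selp-/- 3. Nfe2l1 measured 10.62, 10.54 and 10.66 in Selp-/- 1, 2 and 3, against 10.46, 10.70 and 10.64 in WT 1, 2 and 3, a difference of 0.011, and Nfe2l2 differed by 0.099. The mRNA of Nfe2l1 thus lay at nearly the same mean level in both genotypes, with differences of 0.17, -0.16 and 0.019 in numbers 1, 2 and 3. Its arrays numbered 3 lay 0.079 in Selp-/- and 0.067 in WT HSC above the mean of the other numbers. These mRNA levels say nothing of its protein. Vcp, the ATPase that delivers ubiquitinated proteins to the proteasome, was the one probe set of the list whose genotypes did not overlap, at 11.79, 11.69 and 11.71 in Selp-/- HSC, against 11.62, 11.53 and 11.66 in WT HSC, and it was chosen after its values were seen. Of all tested probe sets 2.24% lay wholly higher in Selp-/- HSC, so 1 of 31 is near the background. Actb, a common gene, differed by 0.011.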

How the data were processed

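Expression in 3 Selp-/- and 3 WT HSC samples was measured on 1-colour mouse arrays after amplification and biotin labelling, per the labels' protocols. The values deposited by the authors are intensities of probe sets on a linear scale, for which MAS5 is named without a version, per the submitters' processing notes; genome build and scale factor are not given in the sources used here. The deposited intensities showed neither a common scale nor background subtraction. They were corrected with normexp (offset 50), log2-transformed and quantile normalized in limma 3.58.1 (R 4.3.3), and probe sets under the 40th percentile of mean level were left out, which kept 17289 of 28815. Arrays have no read depth, and their number limits the precision.

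Each probe set was fitted with genotype (lmFit, eBayes with trend, two-sided, Benjamini-Hochberg over all 17289, threshold 0.05), and a second model added the array number, whose terms were tested by a moderated F test. Both fits were also run on simulated data, as a check of the code only. The simulated noise was held at or below the median spread of the arrays numbered 1 and 2, without the wider deviations of number 3. It therefore gives no measure of how well the fits find differences in these arrays. Deviations of same-numbered arrays from their genotype means correlated at 0.428, 0.526 and 0.814 for numbers 1, 2 and 3. Across numbers, Selp-/- 1 correlated at 0.514 with WT 2 and Selp-/- 2 at 0.37 with WT 1, while arrays numbered 3 correlated below 0 with the others, so number 3 stood apart and numbers 1 and 2 were not told apart by this check. The pairing comes from these data, not from the labels.

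Names came from the platform annotation, updated through a RefSeq table of GRCm38.p6. A single symbol was given for 21780 probe sets, of which 21689 matched RefSeq, several for 1605 and no symbol for 5430. Members, lists and the rule for named genes (per place in the complex the 2 with the largest positive and the 1 with the lowest difference, those with no overlap, the 4 of smallest p by array number, subunits with cutting sites, Actb, and set genes of the pathway list with the 4 of largest difference) were chosen with earlier results of these data known. Other members are named as part of the account of every member. Some listed pathway genes, and Selp itself, were not analysed here.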

Additional observations from a re-analysis of the deposited data

How the results depend on the processing

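The median difference of the proteasome probe sets, less the median of all tested probe sets, was 0.12 and stayed above 0 under every alternative run. It was 0.13 without background correction or normalization (where the median of all probe sets was itself 0.11) and with median centring. Without the level filter or with 1 value per gene it was 0.12. Leaving out single arrays, or both arrays of a number, gave 0.0057 (without Selp-/- 3) to 0.23 (without Selp-/- 2). Members above that median numbered 22 to 41 under the same omissions, against 37. Over all probe sets, genotype calls were 0 under each alternative but one, with 4 without the arrays numbered 3, and 0 to 4 over the omissions; 0 members were called in any. The replicate block left the genotype calls at 0. It could not change the difference of 0.12, since each array number holds an array of each genotype. The array number test was not repeated with the block. The test of the array number called 35 members (83.3%, against 34.1% of all probe sets) in unnormalized intensities, where array brightness is part of the term, in place of 4 (9.52%, against 12.8%), and 0 to 7 over the omissions, where 0.503% to 16.8% of all passed. Of 429 values of named genes under the alternatives, 36 moved by more than the SD of the gene's 3 paired differences. That SD is wide where the differences are uneven, so a value within it can still change sign. Psmb6, for example, went from 0.22 to -0.014 without Selp-/- 3 and was not among the 36. The number of arrays, 3 per genotype, limits the precision, and Psma8 and Psmb11, below the level filter, were not tested.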

Other observations

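Proteins that dock on the regulatory particle without being stable subunits are picked here with their values known. The deubiquitinases Usp14 and Uchl5, which trim ubiquitin chains at the proteasome, and the thioredoxin-like Txnl1 had differences of the same signs by number. Usp14 measured 11.22, 10.47 and 11.29 in Selp-/- 1, 2 and 3, against 10.95, 10.72 and 11.01 in WT 1, 2 and 3, with differences of 0.28, -0.24 and 0.28 in numbers 1, 2 and 3. Uchl5 had 0.36, -0.21 and 0.24 and Txnl1 0.27, -0.18 and 0.20. Each was higher in the Selp-/- array of numbers 1 and 3 and lower in that of number 2, signs also seen, among others, in Psmd13 and Psmd14, and the genotypes overlapped in these 5. The ubiquitin shuttle Ubqln2 and the ubiquitin-binding Zfand5 differed by array number (limma, adjusted p = 0.0145 and 0.0191) in the direction opposite to the subunits, with their lowest levels in the arrays numbered 3. Ubqln2 measured 10.45, 10.27 and 9.69 in Selp-/- HSC, against 10.40, 10.14 and 9.53 in WT HSC, and Zfand5 measured 11.08, 11.27 and 10.42 in Selp-/- HSC, against 10.98, 11.11 and 10.41 in WT HSC.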
